A study of Homo sapiens with 24 samples.

Results

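The genes described are the zinc finger genes of chromosome 19, taken from the read count table as every row placed on chr19 whose symbol is ZNF followed by a digit with no hyphen. There are 252 of them among 23354 genes in the table, and they make up 15.7% of the 1609 chromosome 19 genes. All 252 carry a zinc finger description in the table, and 8 of them are described as pseudogenes. In the GENCODE annotation 243 members have a coding transcript, and the predicted protein of 201 holds the pattern of a KRAB A box. The median number of C2H2 finger patterns per protein is 12, with a range from 0 to 39 in ZNF729.

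RNA was sequenced from the human acute myeloid leukemia lines MV4-11 and KG-1a, both labelled WT, after no treatment or treatment with 8CA (8-chloro-adenosine) or 8AA (8-amino-adenosine) at 1 µM for 8 h or 24 h. These adenosine analogs differ in the group on carbon 8 of the purine ring, a chlorine in 8CA and an amino group in 8AA. Line, drug and time gave 12 groups of 2 libraries, named A and B, and 24 libraries in all. Nothing in the labels says that A and B are separate cultures, so the p-values measure the spread between these libraries, which may be technical. MV4-11 is an established line with a KMT2A fusion and an internal tandem duplication in FLT3, and KG-1a is an undifferentiated subline of the KG-1 line.

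C2H2 zinc finger proteins bind DNA through tandem fingers. Many carry a KRAB domain, which recruits TRIM28 (KAP1), and TRIM28 in turn brings the H3K9 methyltransferase SETDB1, heterochromatin proteins and the NuRD complex to the bound site. The family is known for silencing retrotransposons, and its human genes lie in large clusters on chromosome 19 that arose by tandem duplication and whose 3′ ends are themselves marked by H3K9me3.

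Library totals ran from 18633963 to 24520078 counts. Of the 14 markers listed for these leukemias, MV4-11 held FLT3 at 414.8 to 595.8 CPM (counts scaled to a common library size by TMM) and CD33 at 101.9 to 134.9 CPM, but CD34 at no more than 0.165, CD38 at no more than 1.34, KIT at no more than 6.30, HOXA9 at no more than 9.015 and MPO at no more than 12.6 CPM. KG-1a held CD34 at 339.7 to 656.4 CPM and HOXA9 at 23.2 to 28.9 CPM, but CD33 was at 0.364 to 1.06 CPM. There FLT3, LYZ and MPO were at no more than 1.38, 1.39 and 2.25 CPM, and MEIS1 was at 0 in every library. KIT, SPI1 and CD38 were at no more than 7.48, 8.07 and 11.9 CPM in KG-1a. Of 16 markers of other cell types, 8 were at 0 in all libraries of MV4-11 and 8 in all libraries of KG-1a. The summed level of the 16 was 19.2 to 30.0 CPM in MV4-11 and 220.6 to 356.5 CPM in KG-1a, mostly the T cell gene CD3D at 181.3 to 272.8 CPM. Within KG-1a at 24 h the sum was 304.5 to 311.7 CPM untreated, 220.6 to 228.8 CPM after 8CA and 292.0 to 356.5 CPM after 8AA, and its part in the results was not tested. In bulk RNA, fewer expressing cells and less RNA per cell cannot be told apart. One pair stood apart: the KG-1a 24 h 8AA libraries differed from each other with a chi-square of 11.7 per degree of freedom, against 1.42 to 5.00 in the other 11 groups.

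The members were weakly expressed. In untreated MV4-11 the 199 members that passed the count filter had a median level of 3.17 CPM per kb of exon, against 8.26 for all genes tested. In untreated KG-1a the 234 members that passed had a median of 4.75 CPM per kb, against 9.34 for all genes. A total of 193 members passed in both lines, 6 in MV4-11 only, 41 in KG-1a only and 12 in neither. ZNF146, a protein made of fingers with no KRAB domain, had the highest level per length in both lines, at 61.0 CPM per kb in MV4-11 (59.7 to 62.4 over the 4 untreated libraries) and 51.9 CPM per kb in KG-1a (51.4 to 52.4). The next in MV4-11 was ZNF317 at 25.5 CPM per kb (24.45 to 26.34), whose range overlaps that of ZNF266 (23.5 to 24.9), and the next in KG-1a was ZNF121 at 22.1 CPM per kb (21.5 to 23.0). ZNF428, at 21.9 CPM per kb (20.4 to 22.9), ZNF302 and ZNF101 followed in KG-1a, and their ranges overlap that of ZNF121.

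The promoters of ZNF345, ZNF528, ZNF836, ZNF547 and ZNF584 are printed first. With ZNF763 they are the genes called alike in all 24 h comparisons that are described by library, ZNF547 only in part. Each is the 250 bases before the RefSeq start, 5′ to 3′ on the gene's strand, from the RefSeq GRCh38.p14 annotation. Capitals mark matches, on either strand, to the ETS core CCGGAAG, the GC box GGGCGG, the CCAAT box or the cAMP response element TGACGTCA. In ZNF584 a CCAAT match shares bases with a GC box.
ZNF345 (the first of 3 RefSeq entries; chr19:36850626-36850875, plus strand): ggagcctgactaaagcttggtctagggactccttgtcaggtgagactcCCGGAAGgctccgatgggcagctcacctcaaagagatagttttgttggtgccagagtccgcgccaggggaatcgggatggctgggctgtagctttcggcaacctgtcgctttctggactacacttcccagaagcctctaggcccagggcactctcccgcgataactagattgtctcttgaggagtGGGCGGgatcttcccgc
ZNF528 (chr19:52397599-52397848, plus strand): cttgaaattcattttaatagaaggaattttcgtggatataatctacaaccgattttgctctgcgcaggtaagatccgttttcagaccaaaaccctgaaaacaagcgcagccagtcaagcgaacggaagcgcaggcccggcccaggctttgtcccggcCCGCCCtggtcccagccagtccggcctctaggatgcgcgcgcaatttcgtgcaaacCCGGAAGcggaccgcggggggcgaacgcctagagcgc
ZNF836 (chr19:52171622-52171871, minus strand): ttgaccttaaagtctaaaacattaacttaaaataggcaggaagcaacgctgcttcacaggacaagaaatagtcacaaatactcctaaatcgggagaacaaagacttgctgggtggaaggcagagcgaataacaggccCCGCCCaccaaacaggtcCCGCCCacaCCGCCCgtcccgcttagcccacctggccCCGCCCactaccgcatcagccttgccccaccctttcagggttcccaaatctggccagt
ZNF547 (chr19:57363301-57363550, plus strand): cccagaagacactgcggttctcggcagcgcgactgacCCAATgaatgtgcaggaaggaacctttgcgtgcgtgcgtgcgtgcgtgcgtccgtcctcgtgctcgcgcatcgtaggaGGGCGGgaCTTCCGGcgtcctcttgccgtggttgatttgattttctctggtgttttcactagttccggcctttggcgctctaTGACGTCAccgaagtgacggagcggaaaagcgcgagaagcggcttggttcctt
ZNF584 (chr19:58408399-58408648, plus strand): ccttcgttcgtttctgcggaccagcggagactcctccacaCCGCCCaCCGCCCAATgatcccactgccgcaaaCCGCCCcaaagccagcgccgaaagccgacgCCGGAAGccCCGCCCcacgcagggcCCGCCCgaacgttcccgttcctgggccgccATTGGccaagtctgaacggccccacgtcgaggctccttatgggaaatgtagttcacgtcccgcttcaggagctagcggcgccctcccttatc

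Over the 213 members with a promoter entry, 31.5% held the ETS core, against 8.82% of all 27305 promoters and 15.4% of promoters of tested genes that are not members. The GC box was in 64.8% of member promoters, 42.3% of all and 65.6% of tested non-members. The CCAAT box was in 50.7% of member promoters, 33.0% of all and 34.4% of tested non-members. TATAAA was in 1.88% of member promoters, 11.1% of all and 5.60% of tested non-members. The other motifs searched were the NRF1 core GCATGCGC, TGACGTCA and the ZBTB33 core TCGCGAGA. They were in 3.76%, 2.35% and 0.939% of member promoters, against 2.81%, 1.77% and 1.05% of all. In tested non-members the shares were 4.78%, 2.73% and 2.16%, each above that of the members. The ETS core was in 31.6% of members called higher after 8CA in MV4-11 at 24 h and in 35.6% of those not called there. These are matches of letters only.

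The summed level of the members was higher in treated than in untreated libraries at 24 h. In MV4-11 the sum over all 252 members was 3924 and 3843 CPM in the untreated libraries at 24 h, 4861 and 4698 CPM after 8CA, and 4300 and 4227 CPM after 8AA. Both 8CA libraries and both 8AA libraries lay above both untreated libraries, and the 8CA pair lay above the 8AA pair. In KG-1a at 24 h the sum was 5385 and 5262 CPM untreated, 6051 and 6140 CPM after 8CA, and 5963 and 6318 CPM after 8AA, so the treated libraries were again above the untreated ones but those of the 2 drugs overlapped. At 8 h the differences were smaller: 3726 and 3831 CPM untreated, 4070 and 3990 after 8CA, and 3977 and 3868 after 8AA in MV4-11. In KG-1a at 8 h the sums were 5206 and 5248 CPM untreated, 5484 and 5531 after 8CA, and 5439 and 5449 after 8AA.

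**Figure D1:**
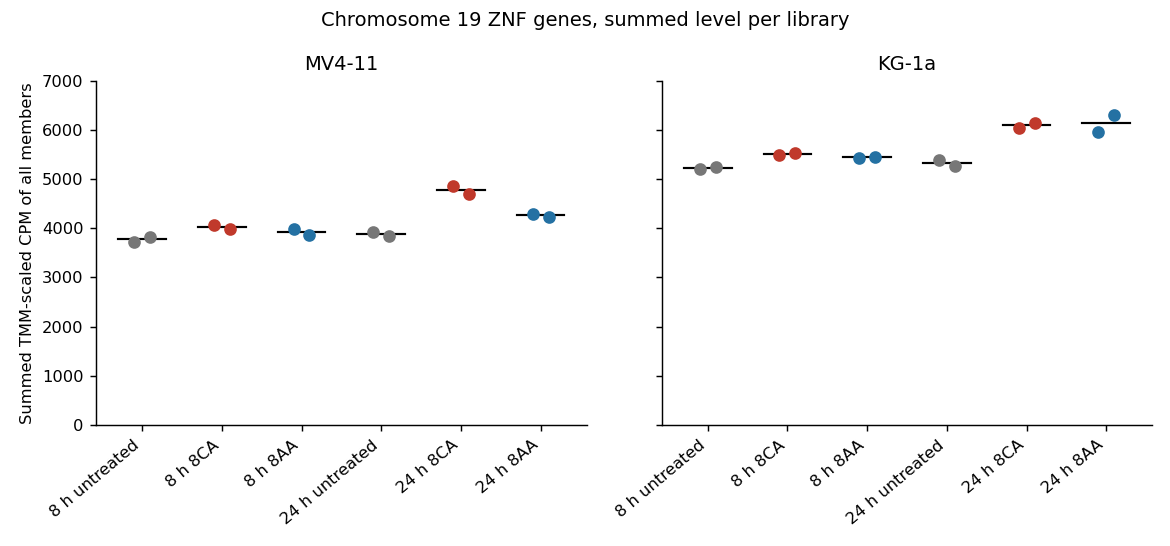
Summed TMM-scaled CPM of the 252 chromosome 19 ZNF genes in each library (points) with the mean of each group (lines), for MV4-11 and KG-1a. At 24 h the 8CA libraries of MV4-11 stand at 4861 and 4698 CPM, above the untreated ones at 3924 and 3843 CPM.

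The widest rise was after 8CA in MV4-11 at 24 h. There 131 members rose and 2 fell of the 199 tested (edgeR's quasi-likelihood test, adjusted p under 0.05 over all genes tested), which is 65.8% higher, while 21.2% of all genes were called higher and 22.7% lower. The median log2 fold change of the members was 0.39, against 0.00 for all genes. ZNF347 (1.36 ± 0.39 SE, adjusted p = 0.0111) and ZNF470 (1.06 ± 0.21, adjusted p = 0.000907) had the largest called rises there among members with a mean log2 CPM of at least 0, the limit for the genes named by size, and ZNF576 fell (-0.57 ± 0.10, adjusted p = 0.000278). ZNF347 rests on 21 and 9 counts untreated and 58 and 28 counts after 8CA. ZNF576 overlaps SRRM5, and ZNF428 on the opposite strand, and whether the counting used strand is not given.

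With 8AA in MV4-11 at 24 h, 52 members rose and 2 fell, 26.1% higher against 13.9% of all genes higher and 15.3% lower. The median of the members was 0.18. The count of rises was 25 and 34 without the 24 h 8AA replicates A and B, and 33 and 21 without the 24 h untreated replicates A and B. The called rises were led by ZNF837 (1.01 ± 0.29, adjusted p = 0.0159), ZNF404 (0.88 ± 0.19, adjusted p = 0.00241) and ZNF345, and the falls were those of ZNF576 (-0.37 ± 0.10, adjusted p = 0.0109) and ZNF584.

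In KG-1a at 24 h, 109 of the 234 members tested rose after 8CA and 4 fell, against 23.4% of all genes higher and 24.0% lower, and the median was 0.21. Without the 24 h untreated replicate B, 62 rose after 8CA. With 8AA at 24 h, 98 rose and 14 fell, against 25.4% of all genes higher and 26.6% lower, with a median of 0.22. Because the KG-1a 24 h 8AA pair stood apart, the count was taken without each library: 104 rose and 13 fell without replicate A, and 88 rose and 15 fell without replicate B. Without the untreated replicates A and B, 9 and 8 fell. ZNF610 rose after 8CA (0.97 ± 0.16, adjusted p = 0.000162), and ZNF738 (1.02 ± 0.09, adjusted p = 1.62e-07) and ZNF418 (1.00 ± 0.09, adjusted p = 1.51e-07) rose after 8AA. ZNF71 fell after 8CA (-0.26 ± 0.10, adjusted p = 0.0389), and ZNF835 (-0.63 ± 0.17, adjusted p = 0.00598) and ZNF324B (-0.52 ± 0.16, adjusted p = 0.0126) fell after 8AA.

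At 8 h fewer members were called. In MV4-11, 21 rose and 2 fell after 8CA (4.58% of all genes higher and 5.77% lower), and 33 rose and 9 fell after 8AA (13.6% and 15.6%). Without the 8 h untreated replicate A these counts of rises were 3 and 14, and without the 8CA replicates A and B the 8CA count was 11 and 9. ZNF446 had the largest called rise in both, at 0.71 ± 0.15 (adjusted p = 0.00809) after 8CA and 0.82 ± 0.15 (adjusted p = 0.00071) after 8AA. ZNF446 overlaps SLC27A5 on the opposite strand, and whether the counting used strand is not given. In KG-1a, 2 rose and 0 fell after 8CA by edgeR (0.7% and 0.181%; 0 fell by DESeq2, and 1 was lower at an unadjusted p under 0.05), namely ZNF829 (0.43 ± 0.08, adjusted p = 0.0155) and ZNF844 (0.38 ± 0.08, adjusted p = 0.0402). With 8AA in KG-1a at 8 h, 42 rose and 25 fell (16.7% and 18%), and 24 rose without the 8AA replicate B. The falls were 12 and 12 without the 8AA replicates A and B, and 16 and 13 without the untreated ones. ZNF345 was at the top (1.10 ± 0.12, adjusted p = 5.21e-06) and ZNF296 was at the bottom (-0.71 ± 0.13, adjusted p = 0.000627). The member medians at 8 h were 0.13 and 0.12 in MV4-11 and 0.08 and 0.09 in KG-1a, for 8CA and 8AA in turn.

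**Figure D2:**
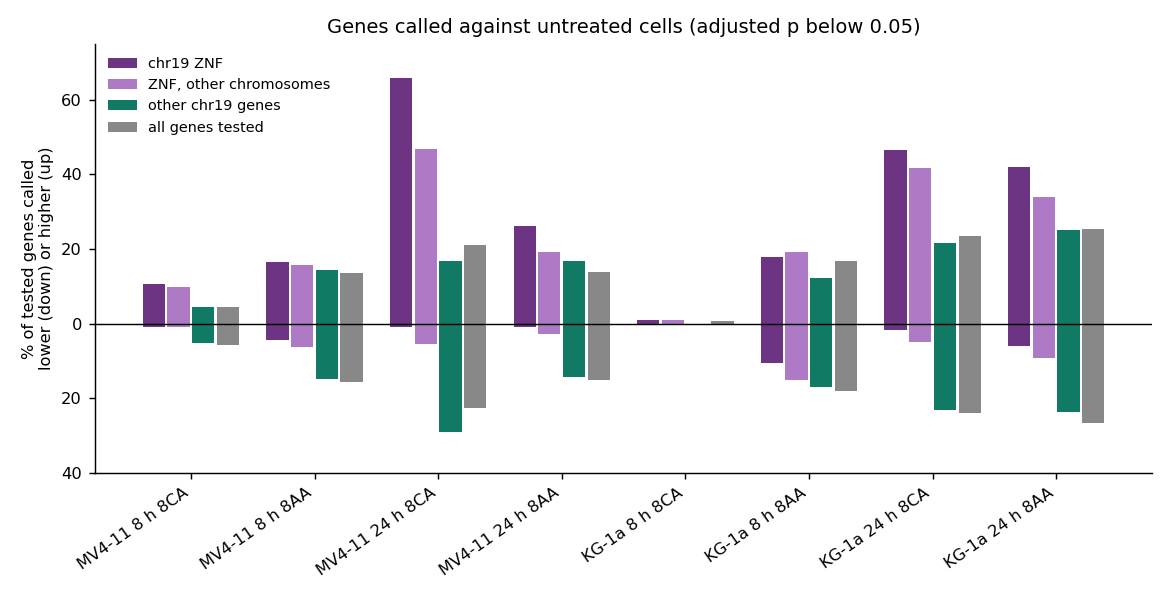
Percent of tested genes called higher (bars up) or lower (bars down) against untreated cells of the same line and time, for the chromosome 19 ZNF genes, ZNF genes of other chromosomes, other chromosome 19 genes and all genes. With 8CA in MV4-11 at 24 h the members stand at 65.8% higher and all genes at 21.2%.

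Other chromosome 19 genes had smaller shares called higher. Among other chromosome 19 genes tested, 16.8%, 16.9%, 21.5% and 25% were called higher at 24 h (8CA and 8AA in MV4-11, then 8CA and 8AA in KG-1a), and 29.2%, 14.5%, 23.1% and 23.6% lower. The 276 ZNF genes of other chromosomes stood between these and the members, with 46.9%, 19.2%, 41.7% and 33.9% of those tested called higher. These shares are descriptions, and the difference between lists was not tested. The members also have a lower GC content over their exons (median 42.3%) than other chromosome 19 genes (58.9%), with the ZNF genes of other chromosomes at 44.3% and all genes at 48.6%, and the part of GC content in the shares was not tested.

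The members lie in 20 runs when neighbours more than 500 kb apart are separated, and 8 runs of at least 14 members hold 228 of them. The median log2 fold change was above 0 in 8 of 8 such runs in each 24 h comparison. With 8CA in MV4-11 the run medians went from 0.22 to 0.47, the highest in the run from ZNF565 to ZNF573. With 8AA in MV4-11 they went from 0.12 to 0.26. In KG-1a they went from 0.09 to 0.24 after 8CA and from 0.05 to 0.34 after 8AA, with the run from ZNF628 to ZNF835 lowest in both. Many neighbouring members are close copies whose reads the counting could split, and 65 members overlap another chromosome 19 gene, so the members are not independent.

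**Figure D3:**
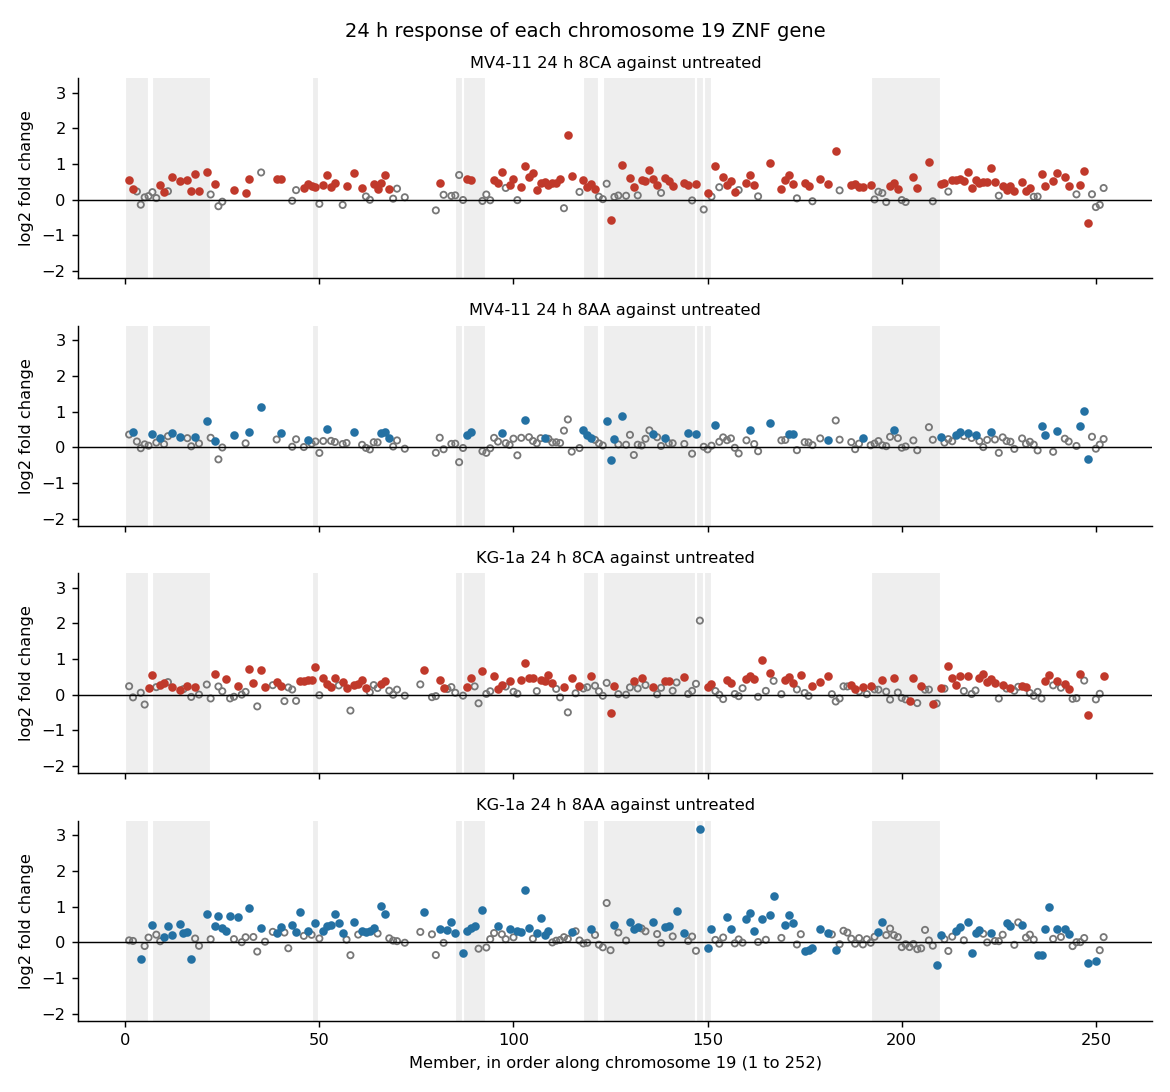
Log2 fold change against untreated cells at 24 h for each tested chromosome 19 ZNF gene, in order along the chromosome, with filled points for called genes and grey bands for alternate runs. Points above 0 are spread over all the long runs, whose medians run from 0.22 to 0.47 after 8CA in MV4-11.

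Members with a KRAB A box pattern and those without it were counted separately. With 8CA in MV4-11 at 24 h, 114 of 161 members with the KRAB pattern were called higher, and 16 of 36 without it. With 8AA in MV4-11 the counts were 40 of 161 and 11 of 36. In KG-1a they were 93 of 187 and 14 of 41 after 8CA, and 83 of 187 and 13 of 41 after 8AA. With the pattern the shares were 70.8%, 24.8%, 49.7% and 44.4%, and without it 44.4%, 30.6%, 34.15% and 31.7%. All genes stood at 21.2%, 13.9%, 23.4% and 25.4%, closest to the members without the pattern after 8AA in KG-1a. The pattern is a match of letters, so a member without a match may still have a KRAB domain. Across members the Spearman correlation of the 24 h log2 fold change with the number of fingers was between -0.03 and 0.08 in the 4 comparisons (197 members in MV4-11 and 228 in KG-1a), which share libraries.

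At 24 h, 29 of the 193 members tested in both lines were called higher in all 4 comparisons (15.03%, against 4.01% of all genes), and 1 was called lower in all 4 (0.518%, against 7.64%). The 8CA and 8AA comparisons of a line share their untreated libraries, so nothing is read from these counts. The 5 with the largest smallest change and the 1 that fell are described with every 24 h library, except ZNF547, for which only some are given. Their positions are those of the count table, which match hg19.

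ZNF345 (chr19:37341260-37403930, plus strand) encodes 15 fingers with no KRAB A box pattern. It stood at 4.12 and 3.48 CPM untreated, 7.42 and 7.12 after 8CA and 6.67 and 6.25 after 8AA in MV4-11 at 24 h. In KG-1a it stood at 7.21 and 7.02 CPM untreated, 13.7 and 12.6 after 8CA and 18.1 and 21.3 after 8AA. The treated and untreated libraries did not overlap in either line, and the 8AA libraries were the highest in KG-1a. The log2 fold changes were 0.94 ± 0.16 (adjusted p = 0.000171) and 0.77 ± 0.16 (0.00217) in MV4-11, and 0.89 ± 0.11 (1.4e-05) and 1.46 ± 0.11 (3.01e-08) in KG-1a, for 8CA and 8AA in turn. ZNF345 overlaps ZNF790 and ZNF829, both on the opposite strand, and whether the counting used strand is not given in the sources used here.

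ZNF528 (chr19:52901121-52921657, plus strand) encodes a KRAB protein with 15 fingers and was called higher in both lines, though its level differed widely between them. It stood at 3.23 and 3.75 CPM untreated, 7.339 and 6.995 after 8CA and 5.74 and 5.44 after 8AA in MV4-11 at 24 h. In KG-1a it stood at 40.5 and 36.8 CPM untreated, 57.0 and 61.8 after 8CA and 61.6 and 70.5 after 8AA. No treated library overlapped an untreated one of its line. The changes were 1.04 ± 0.13 (edgeR adjusted p = 1.63e-05) and 0.68 ± 0.14 (0.00186) in MV4-11, and 0.62 ± 0.08 (1.42e-05) and 0.77 ± 0.08 (9.46e-07) in KG-1a.

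ZNF836 (chr19:52658125-52674896, minus strand), a KRAB protein with 24 fingers, had 5.25 and 5.37 CPM untreated, 8.38 and 8.81 after 8CA and 6.98 and 7.76 after 8AA in MV4-11 at 24 h. In KG-1a it had 8.22 and 8.54 CPM untreated, 12.13 and 11.97 after 8CA and 14.9 and 14.6 after 8AA. The groups did not overlap in either line. The changes of ZNF836 were 0.69 ± 0.11, 0.47 ± 0.12, 0.53 ± 0.09 and 0.82 ± 0.09 in the order above.

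ZNF763 (chr19:12035883-12091198, plus strand), a KRAB protein with 7 fingers that overlaps ZNF700, had 5.90 and 5.33 CPM untreated, 9.02 and 7.60 after 8CA and 7.73 and 7.29 after 8AA in MV4-11 at 24 h. In KG-1a ZNF763 had 3.33 and 2.88 CPM untreated, 5.51 and 4.82 after 8CA and 6.22 and 6.01 after 8AA. Its changes were 0.57 ± 0.12, 0.42 ± 0.13, 0.73 ± 0.17 and 0.97 ± 0.16. ZNF547 (chr19:57874879-57890925, plus strand), a KRAB protein with 10 fingers that overlaps TRAPPC2B, changed by 0.59 ± 0.14, 0.41 ± 0.14, 0.53 ± 0.17 and 0.44 ± 0.17, with adjusted p from 0.00266 to 0.0383. In KG-1a ZNF547 had 2.97 and 3.43 CPM untreated and 4.72 and 3.89 CPM after 8AA at 24 h, so these untreated and 8AA libraries did not overlap.

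ZNF584 (chr19:58920063-58929692, plus strand), a KRAB protein with 8 fingers, was called lower in all 4. At 24 h it had 17.6 and 17.1 CPM untreated, 10.7 and 11.2 after 8CA and 13.4 and 14.2 after 8AA in MV4-11. In KG-1a it had 18.45 and 19.04 CPM untreated, 13.4 and 12.1 after 8CA and 12.7 and 12.6 after 8AA. The log2 fold changes were -0.66 ± 0.10 (edgeR adjusted p = 5.39e-05), -0.33 ± 0.09 (0.0156), -0.55 ± 0.09 (8.37e-05) and -0.57 ± 0.09 (4.59e-05). In MV4-11 ZNF584 was already lower at 8 h, by -0.52 ± 0.09 after 8CA and -0.62 ± 0.09 after 8AA.

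**Figure D4:**
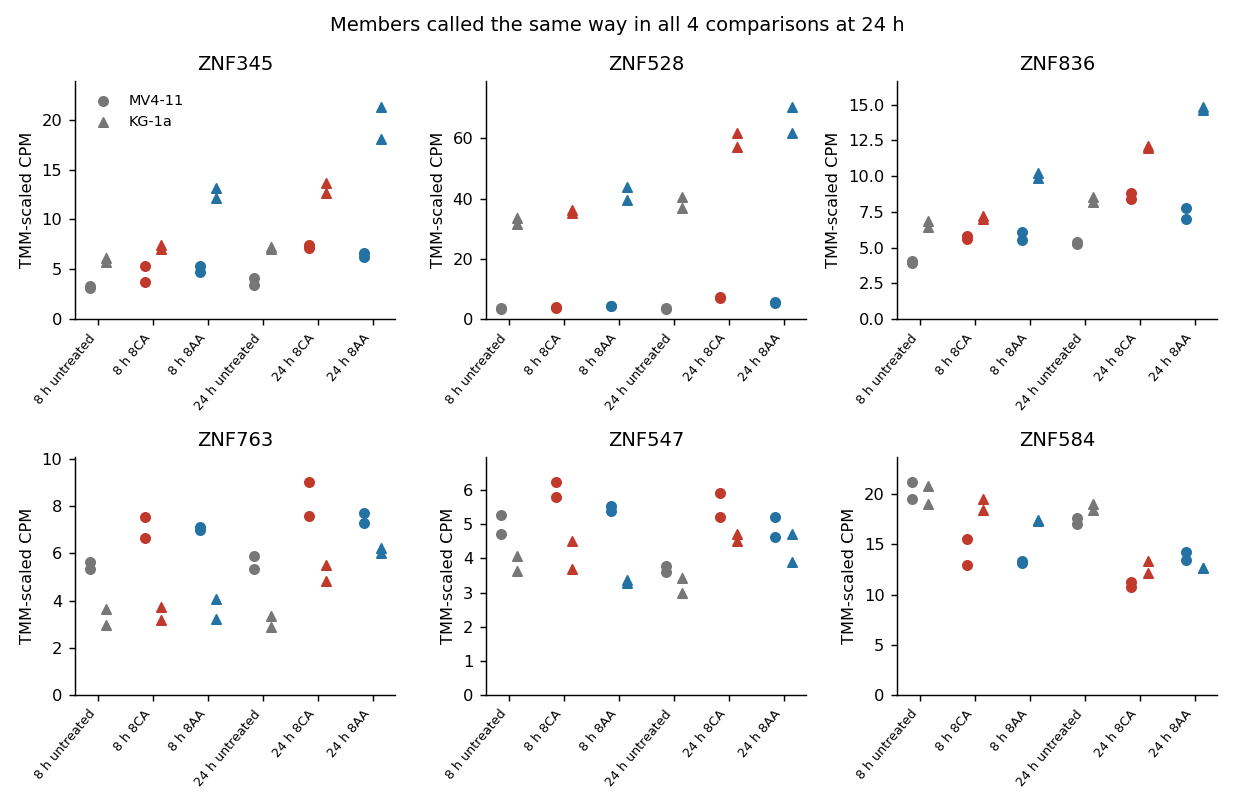
TMM-scaled CPM of ZNF345, ZNF528, ZNF836, ZNF763, ZNF547 and ZNF584 in each library (circles MV4-11, triangles KG-1a; grey untreated, red 8CA, blue 8AA). ZNF345 reaches 18.1 and 21.3 CPM after 8AA in KG-1a at 24 h, and ZNF584 is lower in every treated group at 24 h.

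Members with a known role were listed by name, of which 16 passed the count filter in MV4-11 and KG-1a had 17. At 24 h, 11 rose after 8CA and 2 after 8AA in MV4-11, and 11 after 8CA and 9 after 8AA in KG-1a, where 1 fell after 8AA. These are 68.8%, 12.5%, 64.7% and 52.9% of those tested, against 21.2%, 13.9%, 23.4% and 25.4% of all genes, so the share after 8AA in MV4-11 was near that of all genes. ZNF91, which represses SVA retrotransposons, changed by 0.47 after 8CA in MV4-11 and by 0.42 after 8CA and 0.38 after 8AA in KG-1a (all called). ZNF93, which represses L1 elements, changed by 0.46 after 8CA in MV4-11 and by 0.47 after 8CA and 0.78 after 8AA in KG-1a (all called). Neither ZNF91 nor ZNF93 was called after 8AA in MV4-11. ZNF274, which recruits SETDB1 to the 3′ ends of ZNF genes, changed by 0.38, 0.16, 0.16 and 0.23, of which the 8AA value in MV4-11 was not called. ZNF350, which binds BRCA1, changed by 0.40, 0.20, 0.40 and 0.70, of which the 8AA value in MV4-11 was not called. ZNF224 and ZNF304 were called higher in all 4. ZNF473, which acts in histone pre-mRNA processing, was called higher after 8CA in both lines and lower after 8AA in KG-1a (-0.16). ZNF146 was called in none.

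Transcripts of the proteins that KRAB zinc finger proteins work through were called in both directions. Of 26 corepressor genes, 9 rose and 10 fell after 8CA in MV4-11 at 24 h, 2 and 7 after 8AA in MV4-11, 8 and 10 after 8CA in KG-1a, and 7 and 8 after 8AA in KG-1a. The shares higher were 34.6%, 7.69%, 30.8% and 26.9%, against 21.2%, 13.9%, 23.4% and 25.4% of all genes, and the shares lower were 38.5%, 26.9%, 38.5% and 30.8%, against 22.7%, 15.3%, 24.0% and 26.6%. SETDB1 rose in all 4 (0.32, 0.15, 0.36 and 0.24). TRIM28, the KRAB partner, fell after 8CA in MV4-11 (-0.19) and after 8AA in KG-1a (-0.20), and its other values, -0.13 and -0.12, were not called. CBX3, a heterochromatin protein, fell in all 4 (-0.37, -0.26, -0.24 and -0.33), as did HDAC2 (-0.19, -0.22, -0.23 and -0.38). Of the 29 transcripts chosen as short-lived and tested in MV4-11, 6 were called higher and 10 lower after 8CA and 1 and 9 after 8AA, and of 28 in KG-1a it was 12 and 4 after 8CA and 7 and 8 after 8AA. The shares higher, 20.7%, 3.45%, 42.9% and 25%, were near those of all genes for 8CA in MV4-11 and 8AA in KG-1a. The share was below that of all genes (13.9%) for 8AA in MV4-11 and above it (23.4%) for 8CA in KG-1a. The shares lower were 34.5%, 31.0%, 14.3% and 28.6%, against 22.7%, 15.3%, 24.0% and 26.6% of all genes. Those chosen as long-lived had 3 called higher and 15 lower, 0 and 12, 3 and 16, and 0 and 15 of 19. Their shares lower were 78.95%, 63.2%, 84.2% and 78.95%, each above that of all genes. Their shares higher were 15.8%, 0%, 15.8% and 0%, each below that of all genes. Transcript stability was not measured.

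The drugs were compared directly at the same dose, line and time. In MV4-11 at 24 h the members were lower after 8AA than after 8CA in 49 cases and higher in 1 (9.48% and 11.7% of all genes), and the median difference was -0.18. The count in either direction was 30 and 19 without the 24 h 8AA replicates A and B, and 16 without the 8CA replicate A. ZNF571 differed most, by -0.80, with 3.27 and 2.59 CPM after 8CA and 1.99 and 1.37 CPM after 8AA, followed by ZNF256 (-0.66) and ZNF155 (-0.59). The 1 higher member was ZNF584 (0.33). In MV4-11 at 8 h, 1 member was lower, ZNF587B (-0.35), and 1 higher, ZNF585A (0.37), against 3.7% and 2.96% of all genes. In KG-1a at 24 h, 37 members were lower after 8AA and 34 higher (21.7% and 20.3% of all genes), with a median difference of 0.01, and 44 were called without the 8CA replicate A. ZNF460 was the lowest, at 11.0 and 10.3 CPM after 8CA and 4.18 and 6.21 CPM after 8AA (-1.05). ZNF491 was the highest (0.85). In KG-1a at 8 h, 32 members were lower after 8AA and 21 higher (15.8% and 14.7%), from ZNF610 (-0.73) to ZNF345 (0.81), and without the 8AA replicates A and B or the 8CA replicates A and B the calls were 33, 29, 22 and 25.

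The difference between the times was tested for each drug and line. As the 24 h response minus the 8 h response, 29 members were higher and 0 lower by edgeR for 8CA in MV4-11 (6.48% and 9.83% of all genes), with a median difference of 0.23. DESeq2 also called 0 lower, and 1 was lower at an unadjusted p under 0.05. For 8AA in MV4-11, 3 were higher and 0 lower (2.51% and 2.12%), with 0 lower by DESeq2 and 3 lower at an unadjusted p under 0.05. In KG-1a, 23 were higher and 1 lower for 8CA (11.2% and 12.7%) and 23 and 1 for 8AA (7.64% and 10.7%). In MV4-11 the 8CA calls fell to 14 without the 8 h 8CA replicate B, 18 without the 8 h untreated B, and 11 without either the 24 h 8CA A or the 24 h untreated B. In KG-1a the 8CA calls were 6 to 12 without any of the 8 libraries in that contrast, and 47 and 48 without the 24 h 8AA replicates A and B. The KG-1a 8AA calls were 8 and 15 without the 8 h 8AA A and B, 13 and 10 without the 8 h untreated A and B, 13 and 8 without the 24 h untreated A and B, and 56 without the 24 h 8AA A. The 1 lower member for both drugs was ZNF584. Between the times in untreated cells, 2 members were called in MV4-11 (5.54% of all genes), ZNF160 and ZNF358, and 4 in KG-1a (4.45%), ZNF160, ZNF302, ZNF491 and ZNF792. Of the 21 members called higher at 8 h after 8CA in MV4-11, 19 were again called higher at 24 h. For 8AA in MV4-11 it was 20 of 33, and in KG-1a 34 of 42. Of the 25 members called lower after 8AA in KG-1a at 8 h, 8 were lower at 24 h and 1 was higher. Of all members tested, 65.8%, 26.1% and 41.9% were called higher at 24 h in these comparisons, in the order above. After 8AA in KG-1a 5.98% were called lower. The matching overlap over all genes was not taken, so nothing is read from these overlaps.

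The lines were then compared. Of the 193 members tested in both, 83 were called higher after 8CA at 24 h in both lines. Of the 11485 genes tested in both, 13.1% were. The 83 are 64.3% of the 129 members called higher in MV4-11 and 84.7% of the 98 in KG-1a. For 8AA, 34 of the 193 were called higher in both lines, against 7.23% of the 11485 genes. The 34 are 66.7% of the 51 in MV4-11 and 40.5% of the 84 in KG-1a. The shares of the calls of a single line were not taken over all genes, so nothing is read from them. Across the 193 the Spearman correlation of the log2 fold changes of the lines was 0.48 after 8CA and 0.35 after 8AA. When the difference in response was tested, 27 members were higher in MV4-11 and 2 lower for 8CA at 24 h (5.76% and 5.44% of all genes), and 10 were higher and 17 lower for 8AA (13.8% and 8.51%). The 8CA calls were 12 and 13 without the MV4-11 8CA replicate A or untreated B, and 14 and 15 without the KG-1a 8CA replicate A or untreated A. The 8AA calls were 16 and 17 without the untreated replicate B of MV4-11 or KG-1a. The split for 8AA was 7 higher and 27 lower when scaled by library size only. At 8 h the counts were 1 higher and 1 lower for 8CA (0.427% and 0.726%) and 13 higher and 3 lower for 8AA (7.49% and 3.6%).

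The untreated lines were compared over the 240 members tested in the fit of all 24 libraries. At 24 h, 59 were higher in MV4-11 (24.6%) and 140 lower (58.3%), against 41.0% and 41.0% of all genes, so the share called in either direction was near that of all genes. The median was -0.45, and at 8 h 53 were higher and 139 lower (40.1% and 42.1% of all genes). At both times the same 136 were lower and the same 48 higher, and 0 changed direction. By run, the median difference went from -1.72 in the run from ZNF653 to ZNF791 (chr19:11594242-12740676) to 0.14 in the run from ZNF414 to ZNF846.

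Chosen after the values were seen, 37 members had under 10 counts in each of the 4 untreated MV4-11 libraries and at least 10 in each of the 4 untreated KG-1a libraries. That is 16.1% of the 230 members detected in KG-1a, against 7.44% of all genes. The reverse held for 5 members, 2.604% of 192, against 8.3% of all genes: ZNF114, ZNF132, ZNF404, ZNF556 and ZNF575. Of the 37, 22 had 0 counts in all 4 untreated MV4-11 libraries. The 37 include 10 of the 27 members of the run from ZNF653 to ZNF791. ZNF544 had 0 counts in all 4 untreated MV4-11 libraries and 1592 to 1828 in KG-1a. Its level was at least 1296-fold higher in KG-1a at 24 h (with a floor of 3 counts over the group). ZNF841 was at least 598.6-fold higher and ZNF626 at least 379.7-fold higher. These bounds use CPM scaled within each line, not the scaling of the fit of 24 libraries, and hold only on that scale. In MV4-11 the summed counts of the 37 were 18 to 23 in an untreated library, 51 and 45 after 8CA at 24 h and 63 and 35 after 8AA. As scaled CPM the sums were 0.890 to 1.04 untreated, 2.03 and 1.94 after 8CA and 2.78 and 1.66 after 8AA. In a treated library 3 of the 37 reached 10 counts. The 37 were picked for low counts in these same untreated libraries, which favours higher sums in the others, so nothing is read from this contrast.

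**Figure D5:**
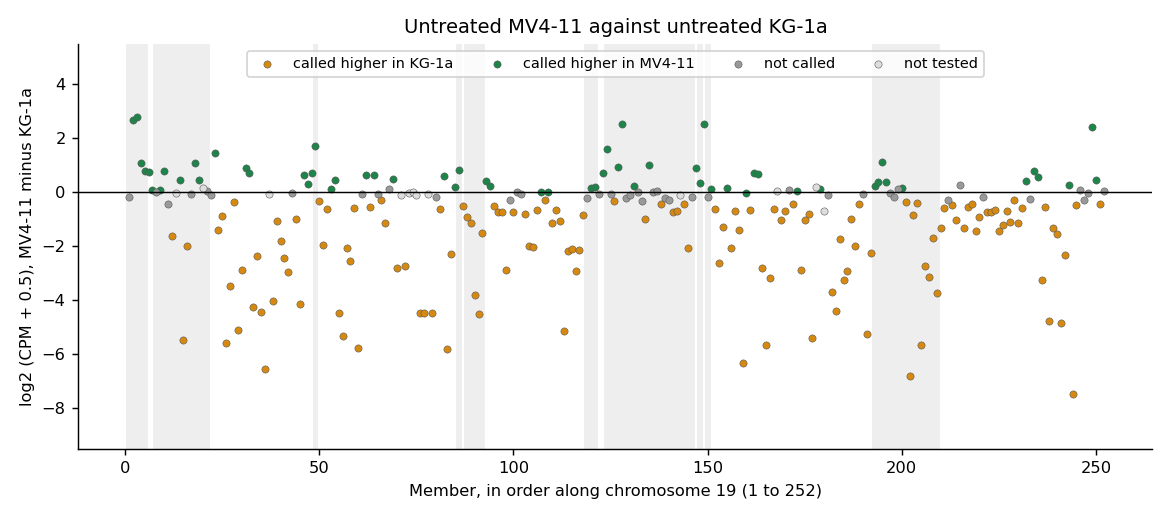
Difference in log2 (mean CPM + 0.5) between untreated MV4-11 and untreated KG-1a for each of the 252 members in order along chromosome 19. Means are over the 8 h and 24 h untreated libraries, with CPM scaled within each line. Colours give the call at 24 h in the fit of all 24 libraries, which has its own scaling. Of the members, 140 are called higher in KG-1a and 59 higher in MV4-11. Points reach far below 0 in the ZNF653 to ZNF791 run (to -6.54, ZNF788) and in other runs (to -7.47, ZNF544).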

How the data were processed

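The deposited table gives raw read counts per gene, which the authors produced; the submitters' processing notes name Trimmomatic, STAR 2.6.0, HTSeq 0.11.1 and edgeR, and list hg19 and hg38 without roles. RNA was extracted with the QIAGEN RNeasy Micro kit. Gene positions match hg19, since the highest chromosome 19 end, 59110852, exceeds that of GENCODE 29 on GRCh38, 58599801. Groups came from the labels. Counts were tested with edgeR 4.0.16 (R 4.3.3) quasi-likelihood fits, one per line (12 libraries) and one of 24 libraries for line differences. Scaling was by TMM, genes were kept by filterByExpr with a minimum count of 10, and p-values were Benjamini-Hochberg adjusted over all genes tested (12800, 12711 and 14055), with a threshold of 0.05. The fits were tested on simulated counts. Alternatives included DESeq2 1.42.0, other scalings, other filters, a replicate block and leaving out each library. Library totals of 18633963 to 24520078 leave many members with few counts. Named genes were known-role members, the 3 most changed called members per direction and comparison (mean log2 CPM at least 0), the 5 per direction with the largest smallest change among those called alike in all 24 h comparisons, and the 5 highest per length. The members and lists were chosen with earlier results of these data known.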

Additional observations from a re-analysis of the deposited data

Results flagged for a closer look

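Groups hold 2 libraries, so no library could be checked against its group. Named members whose response differed between times or lines, by the edgeR test of that difference, follow on the log2 scale. For 24 h minus 8 h, the differences after 8CA in MV4-11 were 0.89 for ZNF528, 0.89 for ZNF404 and 0.84 for ZNF550. After 8AA in MV4-11 they were 0.59 for ZNF550, 0.41 for ZNF761 and 0.40 for ZNF581. After 8CA in KG-1a they were -0.48 for ZNF584, 0.81 for ZNF333, 0.65 for ZNF600 and 0.59 for ZNF345. After 8AA in KG-1a they were -0.37 for ZNF584, 0.97 for ZNF610, 0.83 for ZNF677 and 0.82 for ZNF763.

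For the response in MV4-11 minus that in KG-1a, the differences after 8CA at 8 h were -0.94 for ZNF460 and 0.43 for ZNF561. After 8AA at 8 h they were -0.50 for ZNF799, -0.38 for ZNF584, -0.34 for ZNF8, 1.31 for ZNF320, 1.195 for ZNF446 and 0.82 for ZNF470. After 8CA at 24 h they were -0.68 for ZNF792, -0.43 for ZNF333, 3.03 for ZNF418, 2.33 for ZNF540 and 1.57 for ZNF347. After 8AA at 24 h they were -2.57 for ZNF439, -0.99 for ZNF792, -0.68 for ZNF345, 3.24 for ZNF154, 0.97 for ZNF814 and 0.62 for ZNF296. ZNF418 had 0 and 1 counts untreated and 9 and 7 after 8CA in MV4-11 at 24 h. There ZNF439 had 5 and 3 and then 1 and 1 after 8AA, and ZNF154 had 0 and 1 and then 9 and 8 after 8AA. The fitted values of these genes depend on the prior count. ZNF320 had 14 and 7 counts untreated and 20 and 26 after 8AA in MV4-11 at 8 h. ZNF540 stood at 0.0384 to 0.1565 CPM per kb in untreated MV4-11, so the values of ZNF320 and ZNF540 also rest on low levels.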

How the results depend on the processing

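The member medians stayed above 0 in each of the 8 treated comparisons under every alternative run, from 0.358 to 0.4403 for 8CA in MV4-11 at 24 h and from 0.1567 to 0.31 for 8AA in KG-1a at 24 h. Scaling by library size alone gave a median over all genes of 0.1079 there, against 0.01343 with TMM. Of 172 single called values named, 82 kept their call under each alternative, 90 lost it under at least 1, and 0 reversed. The cause of the changes was not tested.

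Counts of members that moved by over 1.5 times follow. Without the filter on low counts, the count was 32 higher for 8CA in MV4-11 at 8 h, 4 for 8AA minus 8CA in MV4-11 at 8 h, 8 for the 8AA time difference in MV4-11, and 8 and 8 for untreated time in MV4-11 and KG-1a. With the 6 libraries of the time point, it was 12 higher and 1 lower for 8CA in MV4-11 at 8 h, 5 higher for 8CA in KG-1a at 8 h, and 9 lower for 8AA in KG-1a at 24 h. With library size only, it was 1 lower for 8CA and 5 lower for 8AA in MV4-11 at 8 h, and 7 lower for 8AA in KG-1a at 24 h. With upper quartile scaling, these were 1, 4 and 8. The share of calls that were higher moved by over 10 percentage points with library size only for 8AA at 8 h (41 higher and 5 lower in MV4-11, 49 and 18 in KG-1a) and for 8AA minus 8CA in KG-1a at 24 h (49 and 23).

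With DESeq2, the count was 11 higher and 1 lower for 8CA, and 15 higher and 3 lower for 8AA, in MV4-11 at 8 h. It was 30 higher and 0 lower for 8AA in MV4-11 at 24 h, 1 higher for 8CA in KG-1a at 8 h, and 2 lower for 8CA and 8 lower for 8AA in KG-1a at 24 h. For 8AA minus 8CA it was 1 and 27 in MV4-11 and 34 and 43 in KG-1a, at 8 h and 24 h. For the time differences it was 16 and 1 in MV4-11 and 7 and 13 in KG-1a, for 8CA and 8AA, and 1 and 1 for untreated cells. For the line difference after 8AA at 8 h it was 9. When calls also had to reach 1 on the absolute log2 scale, 4 rose after 8CA and 2 after 8AA in MV4-11 at 24 h, 1 after 8AA in KG-1a at 8 h and 4 after 8AA in KG-1a at 24 h, and 0 were called in the other directions and comparisons against untreated cells.

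The correlation of same-letter deviations was 0.40 and 0.44 in MV4-11 and 0.07 and 0.25 in KG-1a at 8 h, and -0.04 and -0.09 in MV4-11 and -0.13 and -0.29 in KG-1a at 24 h, so same-letter libraries deviated together at 8 h in MV4-11 but not at 24 h, and the letters were not taken as pairs. With the letter as a replicate block, 134 and 114 members rose after 8CA and 64 and 106 after 8AA at 24 h in MV4-11 and KG-1a, and the block moved 8AA minus 8CA at 8 h (5), the 8AA time difference (9) and untreated time (7) in MV4-11. With the letters of the KG-1a 24 h untreated libraries crossed, a pairing added after seeing the data, the count was 5 higher for 8CA in KG-1a at 8 h and 8 for untreated time.

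Leaving out each library in turn gave these ranges. In MV4-11 at 8 h, 3 to 22 members rose and 1 to 2 fell after 8CA, and 14 to 32 rose and 3 to 9 fell after 8AA. In MV4-11 at 24 h, 99 to 130 rose after 8CA, and 21 to 55 rose and 1 to 2 fell after 8AA. In KG-1a at 8 h, 0 to 8 rose after 8CA, and 24 to 58 rose and 12 to 32 fell after 8AA. In KG-1a at 24 h, 62 to 121 rose and 3 to 8 fell after 8CA, and 73 to 104 rose and 8 to 16 fell after 8AA. The counts for 8AA minus 8CA were 0 to 2 and 16 to 60 in MV4-11 and 22 to 74 and 44 to 82 in KG-1a, at 8 h and 24 h. The time differences were 11 to 36 and 0 to 5 in MV4-11 and 6 to 48 and 8 to 56 in KG-1a, for 8CA and 8AA, and 0 to 3 and 0 to 9 for untreated cells. The line differences in response were 0 to 5 and 9 to 19 at 8 h and 12 to 34 and 16 to 34 at 24 h, for 8CA and 8AA. A lone library left in a group is assumed to vary like the other groups. The filter of at least 10 counts in every library was not run for the fit of 24 libraries.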
